A study of Mus musculus with 16 samples.

Results

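The comparison described here is the response of the brain to lipopolysaccharide (LPS) in mice labelled Lcn2-/-. LPS, the endotoxin of Gram-negative bacteria, is a strong stimulus of innate immunity. The protein of Lcn2, lipocalin-2, is secreted, captures siderophores and so withholds iron from bacteria, and is known as an acute-phase protein made by reactive astrocytes and endothelium in the inflamed brain. The tissue sequenced was the hemi-brain of C57BL/6J mice aged 3 to 4 months that had been perfused with PBS, 8 h after the injection. The sources used here do not state how the Lcn2-/- mice were made, whether wild-type mice were littermates, their sex, or the LPS dose and route. Of the 16 libraries in the series, 8 carried the Lcn2-/- label: 4 from mice injected with saline (saline libraries 1 to 4) and 4 from mice injected with LPS (LPS libraries 1 to 4). The other 8 came from wild-type mice, 4 after saline and 4 after LPS, and are used here for the spread between libraries and for the comparison of the 2 LPS responses. Values were the authors' normalized log2 RPKM (reads per kilobase of gene, scaled to the library total). A group level is the geometric mean of its 4 libraries, and a change is the difference of mean log2 values with its standard error (SE). A gene was included if its log2 RPKM was at least -1, which is 0.5 RPKM, in 3 or more of the 8 labelled libraries. This kept 16986 of 33289 genes and left out 16303. At the limit, the third-highest value was -0.9995 for Lypd2, which was kept, and -1.0003 for Tmem255b, which was not.

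As background, LPS is sensed by Toll-like receptor 4 with its co-receptor CD14, chiefly on cells of the vessel wall, the meninges and macrophages, including microglia. One branch of the signal runs through MYD88 to NF-kB and drives cytokines, chemokines and acute-phase proteins. Another runs through TRIF to interferon regulatory factors, type I interferon and the interferon-stimulated genes. The endothelium of brain vessels forms the blood-brain barrier, with tight junctions and a set of transporters, and it is the first brain cell type to meet LPS and cytokines from the blood.

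The labelled gene was examined first. Lcn2 (chr2:32384633-32388252, minus strand, GRCm38) measured 0.132, 0.204, 0.351 and 0.247 RPKM in saline libraries 1 to 4 and 40.2, 34.1, 38.3 and 37.2 RPKM in LPS libraries 1 to 4. All LPS libraries were far above all saline libraries, so a transcript assigned to Lcn2 was present and rose after LPS in libraries labelled Lcn2-/-, by 7.41 ± 0.31 (SE, adjusted p = 3.2e-11) on the log2 scale. In wild type it went from 0.108 to 71.9 RPKM, a log2 change of 9.38 ± 0.31 (SE), and the rise in the labelled libraries was smaller by 1.97 ± 0.44 (limma interaction, adjusted p = 0.016). The saline values lay near the detection limit, and all 4 labelled ones were above the wild-type mean of 0.108 RPKM, which adds to this difference. The interaction was still called with 0.5 RPKM added before taking logs. The gene-level value does not separate exons, and the sources used here do not give the part of Lcn2 that the allele lacks, so the label could not be checked further and the libraries are called labelled Lcn2-/- throughout. Slc22a17, a reported cell-surface receptor of lipocalin-2, went from 181 to 174 RPKM and was not called (adjusted p = 0.26).

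One library stood apart within its group. Saline library 4 had 17112 genes at 0.5 RPKM or more against 16372 to 16497 in the other labelled libraries, a 25th percentile of log2 RPKM of -2.73 against -4.12 to -4.07 in saline libraries 1 to 3, and a limma array weight of 0.0902 against 0.739 to 1.87 in the other 15 libraries. Over the 8 labelled libraries the first principal component, with 73.1% of the variance, separated LPS from saline, and the second, with 15.3%, separated saline library 4 from the other 7. Relative to saline libraries 1 to 3 its median difference was -0.62 on the log2 scale for processed pseudogenes and 0.28 for antisense genes, but -0.0085 for protein-coding genes. The lowest log2 value was -7.01 to -8.56 in the saline libraries and -9.55 to -10.5 in the LPS libraries, so fold changes of genes near the detection limit depend on the scale. The neuron, astrocyte and oligodendrocyte marker lists had all of their 14, 18 and 18 genes above the filter. Several counts are also given without saline library 4. The submitters' design text speaks of 3-4 replicates in a group, while the table holds 4, and the title of saline library 4 alone ends in a letter whose meaning is not stated. No counts were analysed, so the depth of the libraries is unknown.

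**Figure D1:**
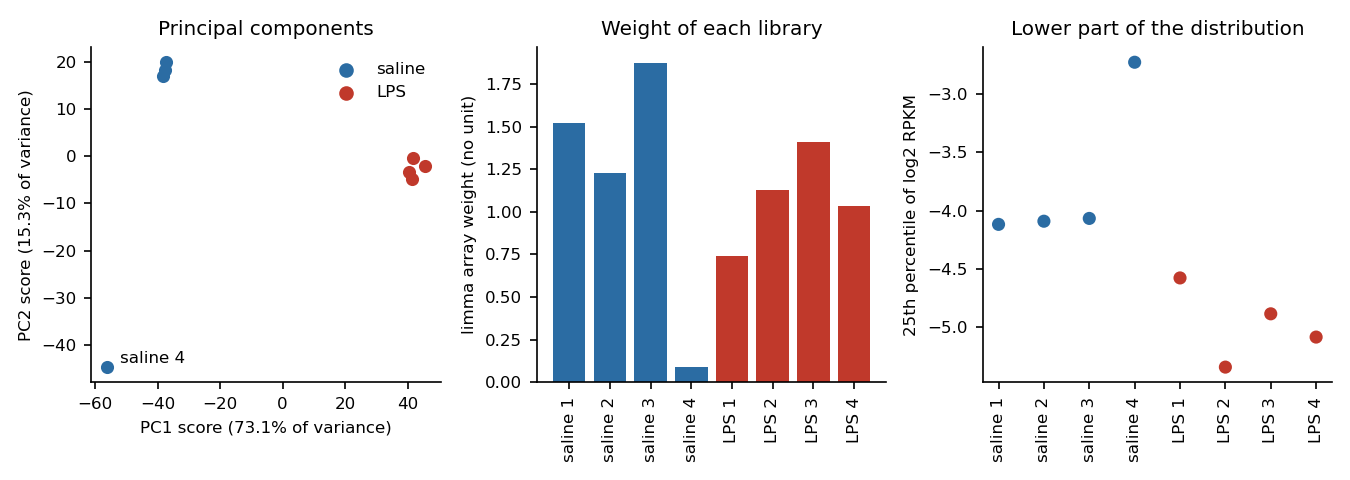
The 8 libraries labelled Lcn2-/- by principal component scores (left), by limma array weight, which is 1 for a library of average reliability (middle), and by the 25th percentile of log2 RPKM (right), with saline in blue and LPS in red. Saline library 4 lies at -44.7 on the second component, has a weight of 0.0902 and the highest 25th percentile, -2.73.

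LPS changed a large share of the transcriptome. With limma and Benjamini-Hochberg adjustment over all 16986 genes, 3576 genes (21.1%) were called higher at an adjusted p under 0.05 and 4730 (27.8%) lower. With an estimated change of at least 2-fold as well, 582 genes (3.43%) were higher and 404 (2.38%) lower, and without saline library 4 these were 576 and 324. With 0.5 RPKM added before taking logs, which damps changes from near the detection limit, they were 404 and 125. Groups did not overlap, with every LPS library above every saline library, for 3218 genes (18.9%), and with every LPS library below for 4063 (23.9%). The median log2 change of all genes was -0.03. The authors' normalization left nearly the same 75th percentile, 2.25, in every library, so this median is not read as a result. The labels do not tie a library to an animal, so these p-values measure the spread between libraries. Because so many genes were called in each direction, the gene groups below are read mainly by their 2-fold counts, beside 3.43% higher and 2.38% lower over all genes. A gene low after saline could pass the filter through its LPS libraries alone, or the reverse. Counts and medians of lists with such members are raised by this. Mean saline log2 RPKM was, for example, -1.13 for chemokine ligands, -0.95 for nucleic acid sensors and -0.24 for neutrophil genes, against 2.18 over all genes.

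The largest changes were ranked only among genes with a symbol of their own, pseudogenes left out, whose groups did not overlap and whose higher group reached 1 RPKM, so the absence of overlap in them is part of the choice. The 12 largest increases within these limits were acute-phase, chemokine, cytokine and interferon-stimulated genes. Saa3 (chr7:46711998-46715700), an acute-phase serum amyloid A made by macrophages and epithelia, measured 0.0992, 0.184, 0.586 and 0.135 RPKM after saline and 149, 82.2, 101 and 152 after LPS. Cxcl10 (chr5:92346638-92348889), an interferon-induced chemokine for activated T cells, measured 0.123, 0.176, 0.341 and 0.232 RPKM after saline and 101, 105, 127 and 77.6 after LPS. Csf3 (chr11:98701263-98703629), which encodes granulocyte colony-stimulating factor, measured 0.0664, 0.0537, 0.0754 and 0.0643 RPKM after saline and 31.6, 23.4, 29.3 and 23.4 after LPS. The 3 genes were below 1 RPKM in every saline library and above 20 RPKM in every LPS library. Their log2 changes were 9.23 ± 0.52 (SE, adjusted p = 8.7e-10), 8.95 ± 0.39 (SE, adjusted p = 5.0e-11) and 8.69 ± 0.15 (SE, adjusted p = 1.9e-15). Adding 0.5 RPKM before taking logs gave 7.34, 7.15 and 5.59.

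The neutrophil-attracting chemokines Cxcl1 and Cxcl2 rose by 7.45 and 7.65 on the log2 scale. Cxcl1 measured 0.112, 0.127, 0.302 and 0.261 RPKM after saline and 40.8, 23.7, 36.1 and 30.0 after LPS, and Cxcl2 0.0389, 0.0604, 0.0418 and 0.101 RPKM after saline and 17.9, 6.79, 14 and 9.55 after LPS. For both, LPS library 2 was the lowest of its group and still far above every saline library. The remaining members of the 12 were Lcn2 itself, the serine protease inhibitor Serpina3f (6.98), the chemokines Ccl5 (6.93), Ccl2 (6.83) and Cxcl9 (6.48), the Schlafen family gene Slfn4 (6.65) and the antiviral radical SAM enzyme Rsad2 (6.30). Ccl2, which attracts monocytes, went from 0.116 to 13.2 RPKM, and Ccl5, which attracts T cells and monocytes, from 0.214 to 26.1 RPKM. Serpina3f and Slfn4 belong to families of near-identical neighbours, and the sources used here do not say how reads shared between copies were assigned. Changes in absolute level were ranked only among called protein-coding genes whose groups did not overlap. By that ranking the largest gains were in the metallothioneins Mt2 (171 to 597 RPKM) and Mt1 (428 to 722 RPKM), which bind zinc and copper. Then came Saa3, Cxcl10, the small GTPase Rhob (124 to 219 RPKM), the interferon-induced membrane protein gene Ifitm3 (13.1 to 103 RPKM), the astrocyte filament Gfap (35.4 to 124 RPKM) and the lipocalin Apod (60.4 to 145 RPKM). The largest losses by absolute level were in Snurf (389 to 332 RPKM), which shares its transcript with Snrpn so that its reads cannot be told apart from that gene's, Ndfip1 (243 to 195 RPKM), Rtl8c (206 to 162 RPKM), the immediate early factor Egr1 (65.7 to 23.4 RPKM) and basigin, Bsg (174 to 132 RPKM). The increases with the highest moderated t values, which are large relative to their error, were Csf3, Icam1, Cdkn1a, Tmem252, Adamts1, Socs3, Tgm2 and Akap12.

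Promoters of 6 of these genes are shown, those with the most matches to 6 short motifs of immune and stress signalling. The sequences are the 250 bases before the RefSeq start site (GRCm38.p6), 5′ to 3′. Of the 12 largest increases 9 had an entry. Capitals mark matches, on either strand, to an interferon response core (GAAANNGAA), a kB core for NF-kB (GGANTTTCC), a GAS element (TTCNNNGAA), a glucocorticoid half-site pair (ACANNNTGT), a C/EBP motif (TTGCNNAA) or a cyclic AMP response element (TGACGTCA). In Serpina3f the interferon core and the GAS match overlap.
Serpina3f promoter, chr12:104214294-104214543, plus strand: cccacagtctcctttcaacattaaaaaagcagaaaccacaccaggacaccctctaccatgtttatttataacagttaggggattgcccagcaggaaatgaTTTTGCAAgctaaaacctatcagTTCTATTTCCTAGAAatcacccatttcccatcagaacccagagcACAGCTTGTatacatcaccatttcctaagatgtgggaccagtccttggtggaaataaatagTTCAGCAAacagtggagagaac
Lcn2 promoter, chr2:32387740-32387989, minus strand: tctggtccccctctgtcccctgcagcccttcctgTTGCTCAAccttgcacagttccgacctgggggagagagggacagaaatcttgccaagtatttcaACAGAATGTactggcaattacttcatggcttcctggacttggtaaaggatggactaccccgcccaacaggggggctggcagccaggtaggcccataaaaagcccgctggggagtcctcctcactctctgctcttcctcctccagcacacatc
Cxcl1 promoter, chr5:90890995-90891244, plus strand: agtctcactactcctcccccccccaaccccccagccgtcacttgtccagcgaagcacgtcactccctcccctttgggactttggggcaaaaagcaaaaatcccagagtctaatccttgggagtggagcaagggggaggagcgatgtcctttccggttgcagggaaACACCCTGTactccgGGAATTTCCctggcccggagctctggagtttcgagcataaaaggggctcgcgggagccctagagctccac
Cxcl10 promoter, chr5:92348890-92349139, minus strand: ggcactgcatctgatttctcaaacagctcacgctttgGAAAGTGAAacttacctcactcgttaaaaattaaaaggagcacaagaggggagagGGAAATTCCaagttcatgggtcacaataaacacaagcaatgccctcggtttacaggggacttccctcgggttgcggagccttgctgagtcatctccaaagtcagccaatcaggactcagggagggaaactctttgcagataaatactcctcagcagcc
Saa3 promoter, chr7:46715677-46715926, minus strand: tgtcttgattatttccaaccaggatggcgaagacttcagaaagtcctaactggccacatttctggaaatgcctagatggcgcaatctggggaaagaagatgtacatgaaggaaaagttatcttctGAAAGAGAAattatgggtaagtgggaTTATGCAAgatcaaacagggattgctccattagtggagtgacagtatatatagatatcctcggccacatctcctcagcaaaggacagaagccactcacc
Cxcl2 promoter, chr5:90903649-90903898, plus strand: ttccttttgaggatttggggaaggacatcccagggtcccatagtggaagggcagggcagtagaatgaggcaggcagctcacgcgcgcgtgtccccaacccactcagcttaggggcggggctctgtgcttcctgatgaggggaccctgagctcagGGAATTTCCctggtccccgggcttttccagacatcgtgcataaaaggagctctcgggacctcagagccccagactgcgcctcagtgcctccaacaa

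The kB match lay 158 bases before the start in Cxcl10, 70 in Cxcl1 and 96 in Cxcl2, and Cxcl10 also had an interferon core 213 bases before the start. The Lcn2 promoter had neither of these 2 motifs. Rsad2 and Cxcl9, which are not printed, each had 1 interferon core, 119 and 175 bases before the start. Matches were counted in windows from 250 bases before to 50 bases after the start. Among genes at least 2-fold higher, 79 of 381 (20.7%) held an interferon core and 22 of 381 (5.77%) a kB core. Among all tested genes with a promoter the shares were 6.97% and 1.31%, and among genes at least 2-fold lower 6.09% and 1.02%. GAS matches were in 13.9%, 6.66% and 5.58% of the 3 sets in the same order, C/EBP matches in 13.4%, 7.97% and 8.12%, glucocorticoid pairs in 8.14%, 4.26% and 6.09%, and cyclic AMP elements in 1.31%, 3.16% and 1.02%. Only the first listed start of each gene was used. Of the 27025 genes with a promoter in the reference, 8.57% held an interferon core, 1.23% a kB core and 8.47% a GAS match. C/EBP matches were in 10.8% of them, glucocorticoid pairs in 6.9% and cyclic AMP elements in 1.88%. These matches describe letters in a short window and do not show binding.

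Chemokines formed one of the most strongly changed groups. Of 26 tested chemokine ligands 19 were at least 2-fold higher and 1 at least 2-fold lower, with a median log2 change of 3.08 (1.63 with 0.5 RPKM added before logs). In all, 19 were called higher and 2 lower. Cxcl1, Cxcl2 and Cxcl10 were below 0.5 RPKM in every saline library, so they entered the test through their LPS libraries alone. The 2 that fell were Cxcl12 (7.96 to 2.13 RPKM, -1.90 ± 0.08 (SE, adjusted p = 3.3e-11)), a homeostatic chemokine of vessels and meninges that retains CXCR4-bearing cells, and the neuronal chemokine Cx3cl1 (114 to 91.9 RPKM, -0.31). Cxcl12 measured 7.79, 7.3, 8.43 and 8.36 RPKM after saline and 2.41, 2.11, 1.76 and 2.31 after LPS, with no overlap. The most abundant ligand that was not called was Cxcl14 (41.2 to 42.1 RPKM). Among 8 tested receptors, the atypical receptors Ccrl2 (2.76) and Ackr3 (1.51) rose, while Cxcr4 (0.872 to 0.247 RPKM, -1.82), the receptor of CXCL12, and Cx3cr1 (6.37 to 2.49 RPKM, -1.35), the microglial receptor of CX3CL1, fell. In whole-tissue RNA, fewer cells of a type and less RNA per cell cannot be told apart.

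Many tested genes of LPS and Toll-like receptor signalling rose. Of 17 tested members 12 were called higher and 1 lower, with 9 at least 2-fold higher. Tlr4, the LPS receptor itself, was under the filter and was not tested, and neither were Tlr1, Tlr5, Tlr6, Tlr8, Tlr9, Cd180 and Ticam2. Cd14, the LPS co-receptor, measured 1.54, 1.87, 1.09 and 1.68 RPKM after saline and 22, 25.1, 28.1 and 21.1 after LPS, without overlap of the groups. Tlr2, the receptor of bacterial lipopeptides, rose from 0.564 to 7.5 RPKM and the inhibitory kinase Irak3 from 0.301 to 2.09 RPKM. In the NF-kB list 16 of 23 rose and 1 fell, with 8 at least 2-fold higher. The largest increases were in genes that restrain the response or its messenger RNAs: the nuclear IkB protein gene Bcl3 (4.19), Zfp36 (3.06), which encodes tristetraprolin, and Zc3h12a (2.30), which encodes regnase-1. The kinase subunit Chuk fell (-0.34).

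Cytokine families changed at ligands and at receptors. In the interleukin-1 family 7 of 10 rose, led by the receptor antagonist Il1rn (0.0431 to 1.42 RPKM, 5.05 ± 0.28 (SE, adjusted p = 7.5e-10)), Il1b (0.11 to 0.817 RPKM) and Il1a (0.194 to 0.871 RPKM), while the inhibitory receptor Sigirr fell (-1.08). Il1b stayed below 1 RPKM on average after LPS. Of the interleukin-6 family, Il6 (0.0853 to 1.83 RPKM), the oncostatin M receptor Osmr (0.425 to 4.66 RPKM) and the interleukin-6 receptor chain Il6ra (0.615 to 1.32 RPKM) rose, and 7 of 11 members were called higher in all. In the TNF superfamily 14 of 25 were called higher and 8 lower. The co-stimulatory receptor Cd40 (3.04), the ubiquitin ligase Birc3 (2.71) and the death receptor Fas (2.23) rose most, and the receptor Tnfrsf19 (-0.87) and the ligands Tnfsf13 (-0.81) and Tnfsf12 (-0.63) fell most.

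Downstream of these receptors, Socs3, an inhibitor of gp130 and interferon signalling, measured 0.587, 0.709, 0.814 and 0.805 RPKM after saline and 12.7, 14.3, 15.5 and 11.8 after LPS. The 4 LPS libraries lay close together, and it rose by 4.22 ± 0.11 (SE, adjusted p = 2.7e-13), and Socs1 (1.63) and Stat3 (1.54) rose with it. In the JAK, STAT and SOCS list 10 of 22 were called higher and 7 lower, and the kinase Tyk2 (-0.43) and Socs7 (-0.43) were among those that fell. The most abundant member that was not called was Pias2, at 10.9 to 10.3 RPKM.

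Interferon-stimulated genes rose. All 11 tested guanylate-binding and immunity-related GTPases, which attack vacuoles that hold pathogens, were at least 2-fold higher, with a median log2 change of 3.68 (3.02 with 0.5 RPKM added). Gbp2 measured 1.23, 2.07, 1.47 and 1.14 RPKM after saline and 70.7, 64.6, 70.9 and 63.8 after LPS, with no overlap, and Iigp1 (4.72) and Gbp2b (4.56) followed. Gbp genes are close copies of each other, so reads may be shared between them. Of 33 antiviral effectors 29 were at least 2-fold higher and 0 fell. Rsad2 measured 0.252, 0.262, 0.24 and 0.381 RPKM after saline and 15.9, 33.4, 29.2 and 14.9 after LPS, with LPS libraries 2 and 3 the highest and no overlap. The OAS-like gene Oasl1 rose from 0.0727 to 4.54 RPKM and the dynamin-like GTPase Mx1 from 0.104 to 5.65 RPKM. Adar, an RNA-editing enzyme, was the most abundant that was not called (23.9 to 24.9 RPKM). Sensors of viral nucleic acid followed, with 12 of 16 at least 2-fold higher and a median of 2.09 (1.16 with 0.5 RPKM added), led by Ifi204 (4.31), Nlrc5 (3.65), a transactivator of MHC class I genes, and Ifi207 (3.06). Mavs, the adaptor of the RNA sensors, fell (1.51 to 0.991 RPKM, -0.61).

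Some of the interferon regulatory factors, which drive these genes, rose. Irf7, the amplifier of type I interferon, measured 0.739, 0.942, 0.81 and 0.491 RPKM after saline and 20.0, 16.4, 18.2 and 20.9 after LPS, with no overlap and a log2 change of 4.70. Irf1 (1.19 to 7.19 RPKM) and Irf8 (0.559 to 1.56 RPKM) rose, and 4 of 7 tested interferon regulatory factors were called higher and 0 lower. In promoters of the lists, an interferon core was present in 14 of 24 antiviral effectors and 7 of 7 GTPases that had an entry, beside 6.97% of all tested genes with a promoter. It was present in 5 of 18 chemokine ligands, 3 of 21 barrier transporters and 3 of 27 AP-1, ATF and immediate early genes.

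Genes of antigen presentation by MHC class I rose. All 21 members of the immunoproteasome and peptide-loading list were called higher, 11 at least 2-fold, led by the peptide transporter Tap1 (0.59 to 6.32 RPKM), H2-Q4 (1.23 to 12.1 RPKM) and the immunoproteasome subunit Psmb8 (0.967 to 6.19 RPKM). H2-Q genes share long stretches with each other and with other class I genes, so their separate levels are uncertain. The constitutive proteasome moved far less: 15 of 34 subunits were called higher, 0 at least 2-fold, and 1 lower, and the median was 0.08. With trends in GC content and length removed 10 were higher and 5 lower, with a median of 0.02. MHC class II genes showed no 2-fold change among 8 tested, with 2 called higher and 2 lower, beside 21.1% and 27.8% of all genes. H2-Eb1 fell (2.9 to 1.89 RPKM). Of 11 ligands of T cell co-stimulation and checkpoints 7 rose and 2 fell. Cd274, which encodes PD-L1, rose from 0.588 to 9 RPKM and Lgals9 from 1.67 to 12 RPKM, while Vsir, which encodes the checkpoint protein VISTA, fell from 3.96 to 1.89 RPKM.

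Complement components and several enzymes of inflammatory mediators rose. In the complement list 16 of 22 rose, 8 at least 2-fold, without a 2-fold decrease, led by C1ra (2.59), C3 (2.55) and the C5a receptor C5ar1 (2.39), and properdin, Cfp, fell (-0.65). Of 13 tested genes of prostaglandin synthesis and receptors 4 were called higher and 4 lower. Ptgs2 (cyclooxygenase-2, 1.92 to 7.53 RPKM) and Ptges (prostaglandin E synthase, 0.904 to 3.52 RPKM) rose by 1.97 and 1.96, while the prostaglandin D synthase Hpgds fell by 1.61. Acod1, which makes itaconate, rose from 0.0556 to 1.61 RPKM, Ch25h, which makes 25-hydroxycholesterol, from 0.506 to 8.64 RPKM, and Hmox1, heme oxygenase-1, from 1.5 to 6.65 RPKM. Of 27 tested iron and heme genes 6 were called higher and 7 lower, beside 21.1% and 27.8% of all genes. Among them the metalloreductase Steap4 (0.209 to 9.48 RPKM), ceruloplasmin, Cp (2.23 to 13.5 RPKM), and haptoglobin, Hp (0.156 to 0.941 RPKM), rose. The iron exporter ferroportin, Slc40a1, measured 1.11, 1.1, 1.12 and 1.31 RPKM after saline and 0.122, 0.0875, 0.0875 and 0.196 after LPS. Every LPS library was below every saline library, and the log2 change was -3.32 ± 0.22 (SE, adjusted p = 5.7e-09).

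Proteases of the matrix and clotting genes rose more often than they fell, with 16 of 30 metalloproteinases and inhibitors called higher and 5 lower, and 12 of 20 clotting genes higher and 3 lower. The stromelysin Mmp3 went from 0.0508 to 3.93 RPKM, the metalloproteinase inhibitor Timp1 from 0.873 to 28.8 RPKM and the collagenase Mmp13 from 0.0456 to 0.99 RPKM, and 8 members of that list were at least 2-fold higher (5 with 0.5 RPKM added before logs). The urokinase receptor Plaur rose from 0.273 to 10.1 RPKM and Serpinf2, alpha-2-antiplasmin, from 0.0819 to 0.852 RPKM, while von Willebrand factor, Vwf, fell from 1.8 to 0.547 RPKM. Of 28 collagen chains 8 rose and 8 fell, and 8 and 12 without saline library 4. The shares over all genes were 21.1% higher and 27.8% lower. Basement membrane collagen Col4a1 rose (1.38) and fibrillar Col1a1 fell (-1.18). In the list for inflammasomes and lytic death, Zbp1 (5.41), Casp4 (4.30), the sensor of cytosolic LPS, and the necroptosis effector Mlkl (4.13) rose, with 9 of 14 called higher. Among 26 NADPH oxidase subunits and NRF2 targets 16 rose and 2 fell (4 with trends in GC content and length removed), and the phagocyte oxidase subunits Cybb (2.20) and Ncf4 (1.70) rose.

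**Figure D2:**
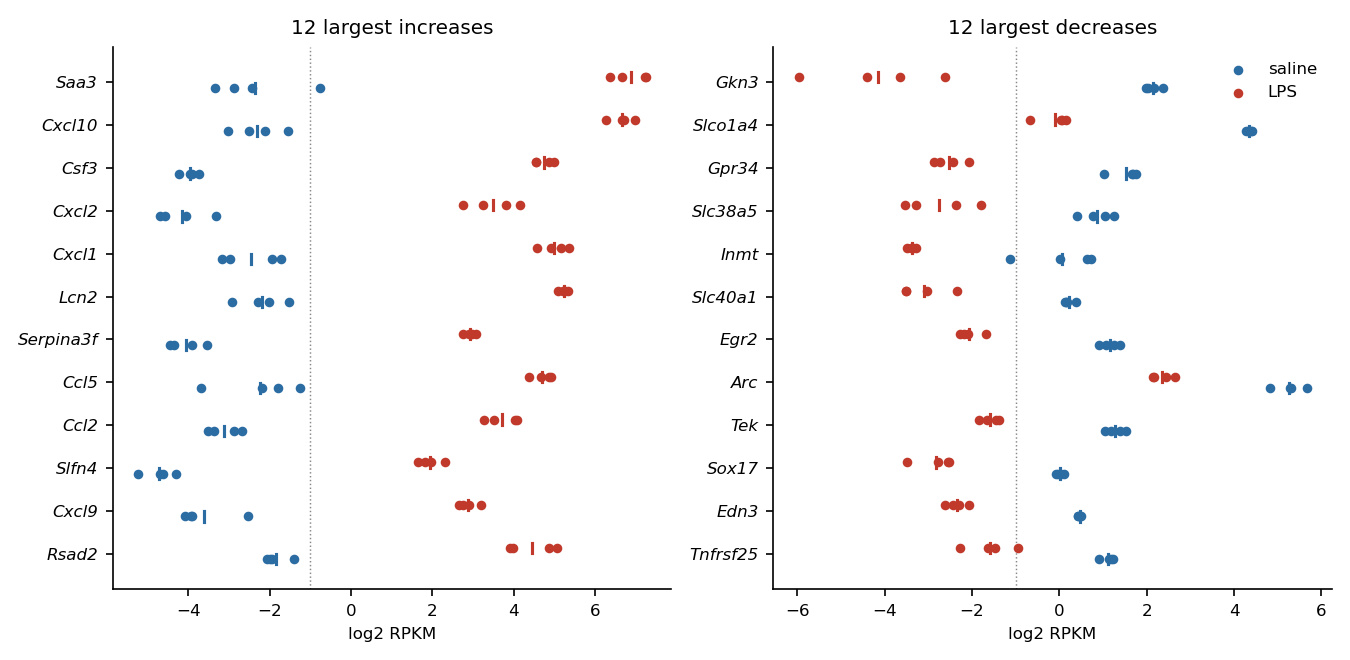
Values in each library (points) and group means (bars) of log2 RPKM for the 12 largest increases and 12 largest decreases, with saline in blue and LPS in red; the dotted line is the filter at -1. The genes were chosen among those whose groups do not overlap. Saa3, Cxcl10 and Csf3 lie below 1 RPKM (0 on this scale) in every saline library and above 20 RPKM in every LPS library.

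The 12 largest decreases within the same limits held several genes of the vessel wall and 1 microglial gene, Gpr34. Gkn3 (chr6:87383256-87388935), a gastrokine family gene known as a marker of arterial endothelium in mouse brain, measured 3.95, 4.07, 4.53 and 5.16 RPKM after saline and 0.0796, 0.163, 0.0473 and 0.016 after LPS, a log2 change of -6.30 ± 0.55 (SE, adjusted p = 2.0e-07). Slco1a4 (chr6:141805440-141856199), an organic anion transporter of the blood-brain barrier, measured 19.9, 21.4, 20.8 and 19.5 RPKM after saline and 1.03, 1.04, 0.629 and 1.12 after LPS, a log2 change of -4.45 ± 0.16 (SE, adjusted p = 7.6e-12). LPS library 3 was the lowest for Slco1a4 and LPS libraries 1, 2 and 4 lay close together. Gpr34 (chrX:13632089-13640858), a lysophosphatidylserine receptor of microglia, measured 3.25, 3.38, 3.19 and 2.03 RPKM after saline and 0.15, 0.237, 0.185 and 0.137 after LPS. Saline library 4 was the lowest of its group for Gpr34, and without it the log2 change was -4.24 in place of -4.07.

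The other decreases among these 12 were the amino acid transporter Slc38a5 (-3.61), the methyltransferase Inmt (-3.43), ferroportin, the immediate early genes Egr2 (-3.21) and Arc (-2.92), the angiopoietin receptor Tek (-2.87), the endothelial factor Sox17 (-2.84), the endothelin ligand Edn3 (-2.81) and the death receptor Tnfrsf25 (-2.70). With 0.5 RPKM added before logs the same 12 ranged from -3.86 for Slco1a4 to -1.23 for Sox17, with -3.09 for Gkn3. Tm6sf2, at 0.927 RPKM after saline and 0.102 RPKM after LPS, lay outside the limit on level, with a log2 change of -3.18 The lowest moderated t values belonged to Jcad, Slco1a4, Slco1c1, Cxcl12, Cav1, Klf16, Itm2a and Tek. Of these Jcad, a junction protein gene of endothelium (12 to 4.46 RPKM), Cav1, caveolin-1 (3.87 to 1.35 RPKM), and Itm2a (33.1 to 7.51 RPKM) are known for high expression in brain vessels.

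Blood-brain barrier transporters fell as a group. Of 27 tested members 2 were called higher and 18 lower, 9 of them at least 2-fold lower and 0 at least 2-fold higher, with a median of -0.62. With 0.5 RPKM added before logs 6 were at least 2-fold lower. Slc38a5 measured 2.38, 1.7, 2.08 and 1.33 RPKM after saline and 0.196, 0.288, 0.103 and 0.0859 after LPS, with saline library 4 the lowest of its group but no overlap. The glucose transporter of the barrier, Slc2a1, went from 26.4 to 26.7 RPKM, a change of 0.02 that was not called. The transporter of lysophosphatidylcholine with docosahexaenoic acid, Mfsd2a, rose (6.14 to 11.7 RPKM, 0.93). The thyroid hormone carrier Slco1c1 measured 15.3, 17, 16.6 and 18.4 RPKM after saline and 4.6, 5.86, 5.31 and 4.68 after LPS, with no overlap.

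Transcription factors of endothelium fell in part. Of 24 tested members 4 were called higher and 12 lower, with 7 at least 2-fold lower (2 with 0.5 RPKM added before logs). Sox17 measured 1.09, 1.03, 0.977 and 0.947 RPKM after saline and 0.172, 0.174, 0.089 and 0.147 after LPS, Sox18 fell from 3.17 to 0.495 RPKM and Foxc2 from 0.682 to 0.156 RPKM. SOX17 and SOX18 are related factors of vessel development. Foxo1, the factor that TIE2 signalling holds out of the nucleus, rose (0.82). Tek, which encodes TIE2, measured 2.28, 2.6, 2.88 and 2.06 RPKM after saline and 0.367, 0.384, 0.318 and 0.28 after LPS. Neither Sox17 nor Tek had overlapping groups. The antagonistic TIE2 ligand Angpt2 rose from 0.643 to 5.32 RPKM (3.05 ± 0.16 (SE, adjusted p = 5.4e-10)). In the angiopoietin, VEGF and Notch list 6 of 26 rose and 14 fell, with 5 at least 2-fold lower (2 with 0.5 RPKM added). Ptprb, the phosphatase that restrains TIE2, fell from 4.29 to 1.3 RPKM, the VEGF receptor Kdr from 1.32 to 0.427 RPKM, and placental growth factor, Pgf, rose from 1.61 to 5.43 RPKM.

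Junction genes split. Cdh5, VE-cadherin, rose from 2.36 to 9.39 RPKM and Esam from 4.37 to 8.14 RPKM, while Ocln, occludin, fell from 2.24 to 1.01 RPKM and Lsr, a protein of tricellular junctions, from 2.25 to 1.11 RPKM. Cldn5, the main claudin of the barrier, was not called (32.3 to 30.4 RPKM). Of 19 tested members 6 were called higher and 9 lower. Of 14 leukocyte adhesion genes 5 rose and 6 fell. Selp, P-selectin, measured 0.0473, 0.0516, 0.0236 and 0.0316 RPKM after saline and 1.78, 1.43, 1.9 and 1.26 after LPS, and Icam1 0.971, 1.06, 0.868 and 1.01 RPKM after saline and 19.8, 17.8, 21.2 and 14.9 after LPS. Neither had overlapping groups. They rose by 5.42 ± 0.28 (SE, adjusted p = 2.8e-10) and 4.23 ± 0.10 (SE, adjusted p = 1.4e-13), and Vcam1 rose by 0.81. Icam2, a constitutive endothelial ligand, fell (1.39 to 0.541 RPKM, -1.36). Wnt ligands and targets of beta-catenin, the pathway that keeps the barrier, fell more often than they rose, with 17 of 32 called lower, 5 at least 2-fold (2 with 0.5 RPKM added), and 3 higher. The feedback inhibitor Notum (0.911 to 0.154 RPKM) and the factor Tcf7 (1.69 to 0.553 RPKM) fell most, and the receptor Fzd4 rose (1.24 to 2.33 RPKM).

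Markers of the cells around vessels were lower as well. Of 16 tested pericyte and smooth muscle markers 10 were called lower and 0 higher, and their summed level was 103 to 112 RPKM in the saline libraries and 74.2 to 86.8 RPKM in the LPS libraries. Anpep, an aminopeptidase of pericytes, fell from 0.939 to 0.209 RPKM, and Pdgfrb, their growth factor receptor, was not called (0.11). For fibroblasts and meninges 10 of 14 were lower and 2 higher, with sums of 61 to 69.6 RPKM in the saline libraries and 51.5 to 57 RPKM in the LPS libraries. The retinoid-binding protein gene Crabp2 (-1.48), Ogn (-1.32) and the GABA carrier Slc6a13 (-1.28) fell and decorin, Dcn, rose (12.7 to 20.2 RPKM). For the choroid plexus 7 of 14 were lower. The count was 5 without saline library 2 or LPS library 4 and 10 without saline library 4. The sum was 838 RPKM in saline library 2, 599.5 to 623.0 RPKM in the other saline libraries and 554 to 579 RPKM in the LPS libraries. Kcne2, a potassium channel subunit of that epithelium, fell from 2.95 to 0.478 RPKM, while its defining product transthyretin, Ttr, was not called (515 to 462 RPKM). The endothelial marker list had 8 of 14 lower and 2 higher, and sums of 128 to 139 RPKM in the saline libraries and 88.5 to 99.1 RPKM in the LPS libraries. The falls of its members Itm2a and Slco1a4, given above, were together about as large as the fall of this sum. Among the other members Cldn5 was not called, and Cdh5 and Esam rose. The sum is therefore not read as a general loss of endothelial RNA. The part that cell numbers play in the vessel results was not tested.

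**Figure D3:**
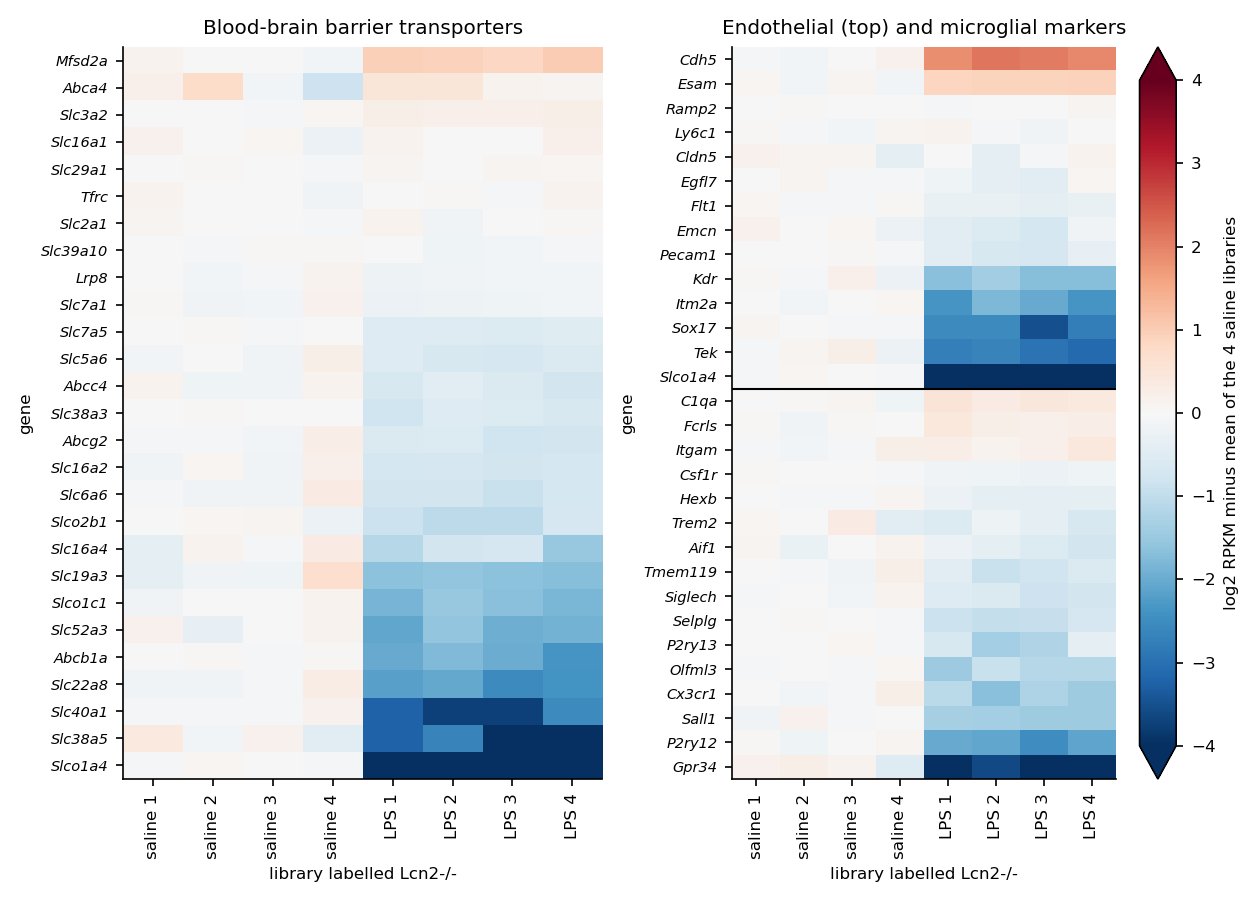
Log2 RPKM in each of the 8 libraries labelled Lcn2-/- minus the mean of the 4 saline libraries, for all 27 tested blood-brain barrier transporters (left) and all 14 endothelial and 16 microglial markers (right, above and below the line); colours saturate at -4 and 4. Most rows are blue in the 4 LPS libraries, while Mfsd2a, Cdh5 and Esam are red.

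Microglial genes fell. Of 16 markers 13 were called lower, 5 at least 2-fold, and 3 higher. P2ry12, the purinergic receptor of surveying microglia, measured 7.64, 6.66, 7.58 and 7.97 RPKM after saline and 1.86, 1.78, 1.34 and 1.72 after LPS, with no overlap, and fell by 2.16 ± 0.11 (SE, adjusted p = 3.3e-10) on the log2 scale. Sall1, a factor of microglial identity, fell from 3.67 to 1.41 RPKM. C1qa, the complement subunit made by microglia, rose (31.7 to 42.6 RPKM). The summed level of the list was 130.3 to 134 RPKM in the saline libraries and 108 to 119.5 RPKM in the LPS libraries, which is a smaller change than that of P2ry12 or Gpr34.

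Of 18 astrocyte markers 6 rose, 1 at least 2-fold, and 2 fell. Gfap measured 36.1, 35.8, 38.6 and 31.5 RPKM after saline and 131, 109.7, 116 and 139.5 after LPS. It rose in every LPS library, by 1.80 ± 0.08 (SE, adjusted p = 9.9e-11). The folate enzyme Aldh1l1 rose from 9.03 to 15.4 RPKM. The GABA carrier Slc6a11 fell (38.2 to 29.2 RPKM), and glutamine synthetase, Glul, was the most abundant marker that was not called (289 to 297 RPKM). In the oligodendrocyte lineage 8 of 18 fell and 2 rose. Gpr17, a receptor of committed precursors, fell from 5.1 to 1.33 RPKM, the lineage factor Sox10 from 11.6 to 4.61 RPKM and the enzyme Aspa from 4.46 to 1.96 RPKM. Sox10 measured 11.7, 12.1, 12.4 and 10.4 RPKM after saline and 4.57, 4.24, 4.6 and 5.05 after LPS, with no overlap.

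Leukocyte markers were low in these perfused brains. Of 18 neutrophil genes 7 passed the filter, and 11, among them the defining granule genes Mpo, Elane, Ltf and Camp and the surface gene Ly6g, did not. Of those that passed 5 rose, with Fpr2 (2.36), Ngp (2.35) and S100a8 (1.66 to 6.55 RPKM, 1.98) in the lead, and the receptor Csf3r fell (-0.98). The summed level of the list was 8.37 to 11 RPKM in the saline libraries and 17 to 34.2 RPKM in the LPS libraries. The monocyte list summed to 30.0 to 36.5 RPKM in the saline libraries and 20.3 to 20.8 RPKM in the LPS libraries. Of its 7 tested genes 2 rose (Ms4a4c 4.37, Plac8 3.81) and 1 was at least 2-fold lower, while Ccr2, a defining gene, did not pass the filter. Because members moved in opposite directions, the sum is not read as a measure of monocytes. Of 16 T and NK cell genes 4 passed and of 9 B cell genes 2, and 0 were called higher in either list. Red cell genes had 0 called higher and 3 lower of 7. What blood cells in the vessels or tissue contribute to the immune genes was not tested.

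Targets of the glucocorticoid receptor, the nuclear receptor of the stress hormone corticosterone, rose. Of 24 tested members 18 were called higher and 2 lower, with 7 at least 2-fold higher. The lipid droplet gene Plin4 went from 0.732 to 11.3 RPKM, the lipase inhibitor Angptl4 from 0.381 to 5.65 RPKM and the kinase Map3k6 from 0.771 to 6.84 RPKM. Plin4 measured 0.907, 0.747, 0.571 and 0.743 RPKM after saline and 11.6, 10.9, 10.8 and 12 after LPS, with no overlap. A glucocorticoid half-site pair was present in 1 of 21 promoters of the list, beside 4.26% of all tested genes with a promoter. The receptor itself, Nr3c1, fell from 9.55 to 5.85 RPKM (-0.71). Several of these targets are also raised by inflammatory signals or fasting, and the lists were not chosen to separate them. Of 19 C/EBP and Kruppel-like factors 7 rose and 7 fell. The acute-phase factors Cebpd (3 to 24.8 RPKM), Cebpb (2.71 to 12.1 RPKM) and Cebpa (3.38 to 8.68 RPKM) rose, and Klf10 (10.7 to 3.81 RPKM) fell.

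AP-1, ATF and immediate early genes changed in both directions. Of 36 tested members 14 were called higher and 13 lower, with 6 at least 2-fold higher and 8 at least 2-fold lower. Maff (3.19), Batf (3.10) and Atf3 (3.07), factors of stress and immune activation, rose. The members that fell most are induced by neuronal activity: Egr2 measured 1.87, 2.09, 2.4 and 2.64 RPKM after saline and 0.235, 0.206, 0.221 and 0.312 after LPS, and Arc 28.1, 39, 39.5 and 50.6 RPKM after saline and 6.23, 4.42, 4.5 and 5.41 after LPS. Npas4 fell from 4.9 to 0.885 RPKM. For Egr2 and Arc every LPS library lay below every saline library, with log2 changes of -3.21 ± 0.25 (SE, adjusted p = 4.6e-08) and -2.92 ± 0.16 (SE, adjusted p = 9.3e-10). Fos was not called at 8.56 to 6 RPKM (chosen after its value was seen). Of 24 clock genes 16 were not called, and Per2 fell from 6.39 to 2.63 RPKM (-1.28).

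Neuronal identity genes moved little. Of 14 neuron markers 10 were not called, with none at a 2-fold change, and their summed level was 1577 to 1627 RPKM in the saline libraries and 1601 to 1643 RPKM in the LPS libraries. Among potassium channel and synaptic vesicle genes small decreases outnumbered increases, by more than over all genes. In these lists 29 of 72 potassium channel genes were lower and 8 higher, and 17 of 41 synaptic vesicle genes lower and 4 higher, against 27.8% and 21.1% of all genes. Kcnk9, a background potassium channel, fell from 2.79 to 1.04 RPKM and Kcna3 from 0.64 to 0.247 RPKM. Sodium and calcium channels had 12 of 32 lower, and 7 once trends with GC content and length were removed. Glutamate receptors had 4 higher and 5 lower of 25, with 2 higher without saline library 1. They became 9 and 3 with that correction. GABA and glycine receptor genes had 5 of 20 lower and 1 higher, with Gabrb2 (-0.86) and Gabra2 (-0.69) falling most. The lower counts of these receptor lists, and the corrected one of sodium and calcium channels, did not exceed the share over all genes, 27.8%.

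Among neuropeptides 23 of 34 were not called. Bdnf, the activity-regulated neurotrophin in that list, fell from 3.04 to 1.72 RPKM and Adcyap1, PACAP, from 8.35 to 6.26 RPKM, while Agrp, the feeding peptide of the arcuate nucleus, rose from 1.13 to 1.89 RPKM and Cck, cholecystokinin, fell from 198 to 161 RPKM. Lists of brain regions were examined because hemi-brains can differ in what was dissected, and single libraries stood apart in some. The olfactory bulb list summed to 37.5 RPKM in saline library 2 and to 17.2 to 25.1 RPKM in the other 7 libraries, with 1 of 7 genes called higher and 3 lower. The hypothalamus and pituitary list summed to 44.6 RPKM in LPS library 1 and to 61.2 to 72.6 RPKM in the other 7, with 1 of 9 higher and 0 lower. For hindbrain and spinal cord 2 of 5 were higher, 4 without LPS library 1 and 0 without saline library 4. Their sums were 7.2 to 10.4 RPKM in the saline libraries and 6.86 to 13.8 RPKM in the LPS libraries. For ependyma 2 of 9 were lower (4 without LPS library 3). Of 11 striatal genes 7 were lower and 0 higher, with Drd1 (-0.71) and Gpr6 (-0.71) lowest and summed levels of 317 to 343 RPKM in the saline libraries and 287 to 312 RPKM in the LPS libraries. Of 12 cerebellar genes 7 were higher and 2 lower, with sums of 488 to 523 RPKM in the saline libraries and 541 to 591 RPKM in the LPS libraries. The cerebellar count ranged from 4 to 7 higher when labelled libraries were left out in turn and was 4 without LPS library 2 or 3. The part of dissection in these results was not tested.

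Of 85 cytosolic ribosomal protein genes 35 were called higher and 1 lower, 0 at least 2-fold, with a median of 0.13 (44 higher without saline library 4). Many of them have processed pseudogenes with nearly the same sequence, and processed pseudogenes are where saline library 4 differed most. Mitochondrial ribosomal proteins had 24 of 77 higher and 10 lower (14 higher when the 8 labelled libraries were fitted alone), and respiratory chain genes 16 of 81 higher and 10 lower. Over all genes 21.1% were called higher and 27.8% lower, and these respiratory chain counts exceeded neither share. For the respiratory chain the higher count was 10 without LPS library 2 or 3, and the lower count 5 without LPS library 4 and 6 without LPS library 3 or saline library 4. The balance turned to 9 higher and 12 lower with GC content and length trends removed. Of 30 genes of the unfolded protein and integrated stress responses 19 rose, 2 at least 2-fold, and 4 fell (2 without LPS library 2). Hspa5, also known as BiP, went from 40.7 to 67.9 RPKM (chosen after its value was seen). The small heat shock protein Hspb1 rose from 1.83 to 9.85 RPKM.

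Cholesterol synthesis fell by small amounts: 16 of 27 genes were lower and 2 higher, 0 at least 2-fold. Apod rose (1.26 ± 0.03 (SE, adjusted p = 4.0e-13)), the cholesterol exporter Abca1 rose (3.25 to 6.25 RPKM) and the phospholipid transfer protein Pltp fell (27 to 13.6 RPKM). In glycolysis 19 of 31 genes were not called, and the regulator Pfkfb3 rose from 4.82 to 10.7 RPKM. Cdkn1a, the p21 cell cycle inhibitor and a target shared by stress pathways, measured 5.4, 5.74, 6.08 and 6.51 RPKM after saline and 43, 51.1, 47.2 and 48.7 after LPS. It rose in every LPS library, by 3.00 ± 0.07 (SE, adjusted p = 1.4e-13). In the cell cycle list, where Cdkn1a is the member with the largest rise, 6 of 24 genes rose and 6 fell. Over all genes 21.1% were called higher and 27.8% lower. Of 52 clustered protocadherin genes, whose transcripts share exons, 9 were called lower, and this ranged from 0 to 11 as labelled libraries were left out in turn, reaching 0 without LPS library 3, 1 without LPS library 4 or saline library 2, 2 without LPS library 2 and 3 without saline library 4. It was 1 with trends in GC content and length removed.

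BMP pathway genes had 6 higher and 11 lower of 29, beside 21.1% and 27.8% of all genes. Bmp3 (1.08 to 0.402 RPKM), the endothelial receptor Acvrl1 (3.44 to 1.58 RPKM) and Bmp4 (1.37 to 0.631 RPKM) fell most, and Smad1 (3.98 to 6.78 RPKM) rose. In the insulin-like growth factor system the secreted binding proteins Igfbp3 (3.62 to 7.22 RPKM) and Igfbp7 (21.8 to 36.5 RPKM) rose and the receptor Igf1r fell (1.66 to 1.11 RPKM). The deiodinase Dio2, which activates thyroid hormone in astrocytes, rose from 8.73 to 19.5 RPKM. TRIM ubiquitin ligases had 8 of 41 at least 2-fold higher (4 with 0.5 RPKM added before logs), led by Trim30a (0.717 to 7.03 RPKM) and Trim30d (0.399 to 3.17 RPKM), and Trim59 fell from 7.53 to 1.95 RPKM. Of 29 lysosomal genes 0 were 2-fold higher and 0 2-fold lower, with Ctsc, cathepsin C, raised from 1.42 to 2.16 RPKM and the lipase Lipa lowered from 6.04 to 3.94 RPKM. Of 40 splicing factors 16 were higher and 7 lower, all under 2-fold. The lower count was 3 without LPS library 2 or saline library 1 and 4 without LPS library 4 or saline library 3, and with trends in GC content and length removed 12 were higher and 10 lower.

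**Figure D4:**
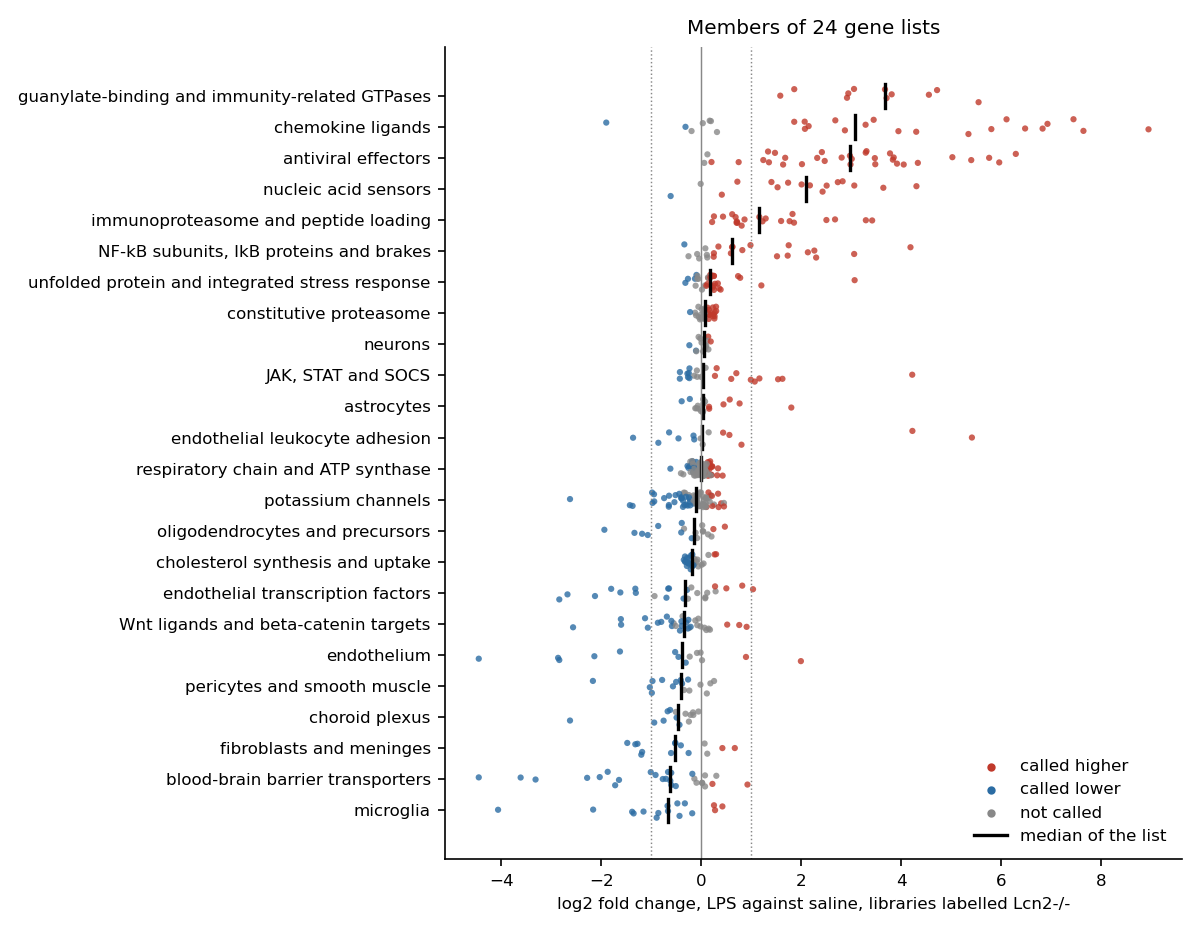
Log2 fold change of every tested member of 24 gene lists for LPS against saline in libraries labelled Lcn2-/-, ordered by the median (black bar); red and blue points were called higher and lower at an adjusted p under 0.05, grey points were not called, and dotted lines mark 2-fold changes. The guanylate-binding GTPases have the highest median, 3.68, and the microglial markers the lowest, -0.67.

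Some genes crossed the detection range. These were counted only among genes with a symbol of their own, pseudogenes left out. With at most 0.5 RPKM in all 4 saline libraries and at least 1 RPKM in all 4 LPS libraries there were 76 genes. The count was 87 when saline library 4 was left out, and with the reverse pattern 15 (16). Of those that rose from below the limit the most abundant after LPS were Cxcl10, Lcn2, Cxcl1, Csf3, Ccl5, Rsad2, Ccl2 and Cxcl2. Those that fell under it were led by Gkn3, Gpr34, Tek, Egr2, Slc38a5, the homeobox factor Msx1 (1.68 to 0.433 RPKM), the organic cation exporter Slc47a1 (1.63 to 0.253 RPKM) and the neural factor Pou3f4 (1.51 to 0.406 RPKM). Of the 404 genes at least 2-fold lower among all tested genes, 245 were protein-coding and 49 antisense. Without saline library 4 these were 220 and 28, and processed pseudogenes went from 15 to 5, so a part of the non-coding decreases rests on that library. The protein-coding genes at least 2-fold higher numbered 489 and 491 without it. The sources used here do not say whether reads were counted by strand, so antisense genes and their partners cannot be told apart.

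The LPS response was then compared with that of wild-type mice by the interaction term of the same limma model, which has its own saline controls on each side. The response was above that in wild type for 692 genes (4.07%) and below it for 873 (5.14%). These counts depended on single libraries: leaving out libraries in turn gave 371 to 1060 above and 400 to 1221 below. They were 1060 and 1221 without saline library 4 labelled Lcn2-/-, and the lowest counts above, 371, came without wild-type LPS library 1 and the lowest below, 400, without wild-type saline library 3. Further libraries that moved a count by over 1.5 times were wild-type saline library 4 (400 above and 503 below without it), wild-type LPS library 2 (453 and 561), wild-type LPS library 3 (548 below), labelled LPS library 2 (425 and 451) and labelled LPS library 3 (376 and 437). Without wild-type saline library 3 there were 378 above, and without wild-type LPS library 1 there were 411 below.

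Many chemokine and interferon-stimulated genes rose by more in the labelled libraries. Cxcl10 had the largest positive interaction, 3.18 ± 0.55 (SE, adjusted p = 0.004): it went from 0.203 to 101 RPKM in labelled and from 0.24 to 13.1 RPKM in wild-type libraries. Rsad2 differed by 2.70 ± 0.38 (SE, adjusted p = 0.0014), and went from 0.273 to 3.31 RPKM in wild type. The channel subunit gene Calhm6 (2.68 ± 0.41 (SE, adjusted p = 0.0021)) rose from 0.219 to 2.9 RPKM in labelled and from 0.255 to 0.526 RPKM in wild-type libraries. Ccl2 (2.68), Cxcl2 (2.55), Ccl7 (2.43), Mx1 (2.26) and Mmp13 (2.26) completed the 8 largest. All 8 rose in wild type as well, by 1.04 for Calhm6 to 5.78 for Cxcl10. The interaction was called for 17 of 33 antiviral effectors, 8 of 11 GTPases, 9 of 26 chemokine ligands (12 without saline library 4) and 11 of 21 peptide-loading genes on the positive side, and for 1 chemokine ligand and 0 genes of the other 3 lists on the negative side. Leaving out each of the 16 libraries in turn gave 13 to 17 antiviral effectors, 6 to 10 GTPases, 8 to 12 chemokine ligands and 6 to 15 peptide-loading genes on the positive side, the last with its fewest without labelled LPS library 3. Of all 16986 genes 4.07% were called on the positive side.

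The 8 largest negative interactions held genes of different kinds. Slco1a4 fell by 4.45 in labelled and by 2.18 in wild-type libraries, where it went from 21.4 to 4.71 RPKM, a difference of -2.27 ± 0.23 (SE, adjusted p = 1.7e-04). Sema3g, a semaphorin of arterial endothelium, fell by 1.85 and had a wild-type change of -0.35 that was not called (interaction -1.50 ± 0.18 (SE, adjusted p = 4.9e-04)), and Tm6sf2, a lipid-regulating membrane protein, fell by 3.18 against 1.53 in wild type. Fmo2, a monooxygenase, went from 0.584 to 0.16 RPKM in labelled libraries and from 0.378 to 0.44 RPKM in wild type. Lcn2 and the leucine-rich glycoprotein Lrg1 rose by less than in wild type; Lrg1 rose by 1.95 against 3.43 and its interaction (-1.48, adjusted p = 0.03) was lost in 6 of the 16 fits that left out 1 library, those without labelled LPS library 2 or 3, wild-type LPS library 1 or 2, or wild-type saline library 2 or 4. Srarp (-1.91) and the small nucleolar RNA DQ267100 (-1.73) had labelled groups that overlapped, and the fall of DQ267100 after LPS was no longer called without labelled LPS library 2 or 3. Of the glucocorticoid list 9 of 24 had a called negative interaction and 1 a positive one, and of the barrier transporters 6 of 27 and 1, beside 5.14% of all genes on the negative side. Leaving out libraries in turn gave 7 to 9 and 4 to 6 negative ones. Cytosolic ribosomal proteins had 15 of 85 positive interactions, 34 without saline library 4 and 8 without labelled LPS library 3.

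**Figure D5:**
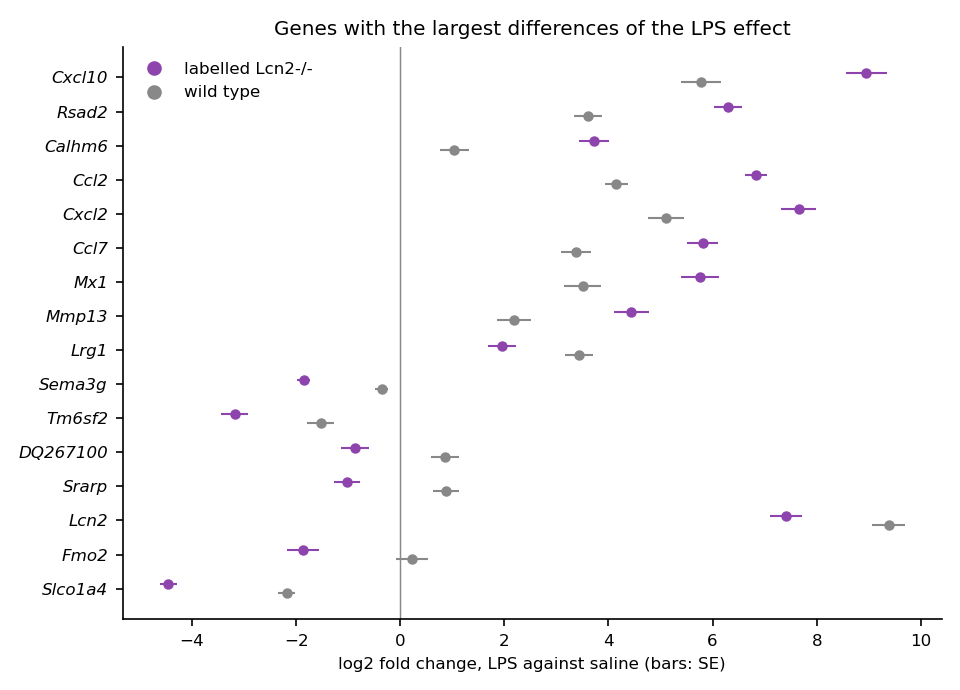
Log2 fold change for LPS against saline in libraries labelled Lcn2-/- (purple) and in wild type (grey), with bars for the SE, for the 8 largest positive and 8 largest negative interactions among genes called for LPS in the labelled libraries. For Cxcl10 the changes are 8.95 and 5.78, and for Slco1a4 -4.45 and -2.18.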

How the data were processed

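RNA came from sonicated hemi-brains, was purified on columns with DNase I and went into standard Illumina libraries, per the labels' protocols. The values are log2 RPKM that the authors deposited in 1 table of 33289 genes and 16 libraries, normalized by conditional quantile normalization (CQN) as the name of the deposited table says; the genome build was mm10 per the submitters' processing notes. Aligner, counter, annotation and strand setting: not given in the sources used here. No counts were used, so depth and counting error are unknown. Of the gene IDs 32695 (98.2%) matched GENCODE vM21 (GRCm38), which gave symbols, positions and biotypes.

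From these values a limma model (version 3.58.1, R 4.3.3) of the 4 group means over all 16 libraries, with 12 residual degrees of freedom and a variance trend, gave each LPS effect and their difference, two-sided, with Benjamini-Hochberg adjustment over 16986 genes at 0.05. Genes needed a log2 RPKM of at least -1 in 3 of the 8 labelled libraries. The model was tested on simulated data. Libraries were numbered in accession order.

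The genes named are Lcn2 and Slc22a17, the 12 largest changes in each direction without overlap and with a level of 1 RPKM or more, the 8 largest changes in RPKM, in moderated t and in the interaction, the 8 most abundant that crossed the detection limits, and in each gene list the 3 largest called changes in each direction and the most abundant uncalled member, with exceptions marked in the text. Except in the gene lists, predicted or unnamed genes and pseudogenes were left out of these rankings. The ranking by RPKM took only protein-coding genes whose groups did not overlap. Gene lists and comparisons were chosen with earlier results of these data known. Promoters were taken from RefSeq (GRCm38.p6), with the first listed start of each gene, matched by symbol for 11442 tested genes. Alternatives were 0.5 RPKM added before logs, no filter, a filter at 1 RPKM, no variance trend, array weights, quantile normalization, removal of GC content and length trends, the 8 labelled libraries alone, and each library left out in turn. Mitochondrially encoded genes were not analysed here, and a few genes that the rule selects are not reported here.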

Additional observations from a re-analysis of the deposited data

Results flagged for a closer look

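Saline library 4 labelled Lcn2-/- lay far from the other 3 saline libraries in 2 measures of the whole library: 17112 genes at 0.5 RPKM or more, and a 25th percentile of log2 RPKM of -2.7253. It also lay apart for 3 of the genes with the largest changes. Its log2 RPKM was -2.5387 for Cxcl9, where the other 3 saline libraries lay between -4.07 and -3.90, 1.0198 for Gpr34, where they lay between 1.67 and 1.76, and 0.3935 for Slc40a1, where they lay between 0.139 and 0.169. In LPS library 3 the barrier transporter gene Slco1a4 had a log2 RPKM of -0.6698 against 0.039 to 0.164 in the other 3 LPS libraries. These are 4 such values among 50 groups of 4 libraries (25 genes), and chance alone marks about 1 group in 20. Over all 475 named genes and 950 groups, saline library 4 was the distant library 59 times and LPS library 4 12 times, and each of the other 6 labelled libraries at most 6 times.

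By limma's interaction test the LPS effect in libraries labelled Lcn2-/- was above that in wild type for 692 genes and below for 873. Only 16 of them are listed here, the largest in each direction among genes called for LPS in the labelled libraries. The difference is given on the log2 scale, labelled minus wild type. It was positive for Cxcl10 (3.1765), Rsad2 (2.6961), Calhm6 (2.6833), Ccl2 (2.6796), Cxcl2 (2.5475), Ccl7 (2.4281), Mx1 (2.2606) and Mmp13 (2.2552). It was negative for Slco1a4 (-2.2738), Fmo2 (-2.0925), Lcn2 (-1.9712), Srarp (-1.9071), DQ267100 (-1.7306), Tm6sf2 (-1.6467), Sema3g (-1.4988) and Lrg1 (-1.4790). Srarp and DQ267100 rose in wild type and fell in the labelled libraries, and the change of Fmo2 in wild type was not called.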

How the results depend on the processing

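The count of genes lower after LPS was 13898 without a filter on low values, where most added genes lie near the detection limit. The count at least 2-fold lower was 125 with 0.5 RPKM added before logs, 9163 without a filter and 227 with a filter at 1 RPKM. The interaction counts were 418 above and 487 below without a filter, and 1401 and 1656 with array weights. Apart from the number of genes tested under the filters, the cause was not tested. Leaving out libraries in turn gave 3138 to 3600 genes higher, 4146 to 4827 lower, 573 to 614 at least 2-fold higher, 324 to 465 at least 2-fold lower, 371 to 1060 with a positive and 400 to 1221 with a negative interaction. All other settings kept these counts within 1.5 times. Of 403 named genes called for LPS, 41 lost the call with the 8 labelled libraries alone, 10 with array weights and 10 with GC content and length trends removed. The call was lost for 2 with quantile normalization, and for 15 to 23 when a labelled library was left out. Under the alternatives run 0 changed sign. Quantile normalization could move little, because the deposited values already had nearly equal upper parts of their distributions. No paired analysis was possible because the labels give no replicate numbers, and libraries were numbered in accession order only. Depth is unknown, so values near the detection limit carry an error that could not be given.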
